A study of Mus musculus with 3 samples.

Results

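Intestine from a mouse model of necrotizing enterocolitis (NEC) was compared with intestine from dam-fed pups, across all genes of the deposited count table. The comparison used 2 of the 3 libraries of the series, 1 from the NEC group and 1 from the control group, which were chosen by their group labels and not by any measured value. Both libraries were labelled as wild-type intestine taken at 96 h. Control pups stayed with the dam, met neither hypoxia nor cold, and were given PBS. For NEC, pups were fed 33% formula by gavage, 40 µl at intervals of 4 h, over 96 h. At intervals of 12 h they met hypoxia (99.9% nitrogen, 100 s) followed by cold (4 °C, 10 min), and they were given the same volume of PBS as the controls. The third library came from pups taken through the same model while fed the HDAC8 inhibitor PCI34051 (10 mg/kg daily over 5 days), and its values are given beside the others only where a level is listed for all 3 libraries. Its column in the table carries a name that matches its label only in part. The labels used here give no strain, age in days, sex, gut segment or pooling of animals. Formula, hypoxia, cold and any disease went together in the NEC group, so their parts cannot be told apart.

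NEC is an acute inflammatory disease of the newborn bowel that mostly affects preterm, formula-fed infants. The intestine of a suckling mouse differs from the adult organ: enterocytes of the distal small intestine take up milk protein by endocytosis and break it down in very large lysosomes, crypts are immature, and Paneth cells are few. Around weaning this suckling programme is replaced by adult brush border digestion, a change that glucocorticoids can bring forward.

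Of the 21983 genes in the table, 14627 reached 1 CPM (1 count in every 1000000 reads, after TMM scaling) in at least 1 of the 2 libraries and are called measured. Of these, 47.1% were at least 2-fold apart: 24.2% were higher in NEC and 22.9% lower, on the scale of log2(CPM + 1). The median log2 difference over all measured genes was -0.03 and its standard deviation across genes was 1.36. Each count of list members below is to be read against these shares. Of the measured genes 1294 reached 1 CPM in NEC alone and 600 in control alone, so that the 1 CPM minimum sets the direction of such genes. There was 1 library a side, so replicate error is unknown, p-values are absent, and the differences are between 2 libraries rather than shown for the conditions. Folds are plain CPM ratios, and the range in parentheses after a fold is its 95% counting interval, which leaves out all variation between animals.

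The libraries differed in more than the treatment. Totals were 15076413 counts in control and 10650638 in NEC, and mitochondrially encoded genes took 4.88% and 32.4% of them. Differences moved with base composition: in the fifth of genes with the lowest GC content 16.8% were higher and 27.0% lower, and in the fifth with the highest 36.7% and 15.0%. Genes of the Y chromosome were absent or nearly so in NEC alone, with Kdm5d at 480, 0 and 345 counts and Uty at 569, 3 and 548 counts in control, NEC and PCI34051+NEC. Sex and treatment therefore cannot be told apart. Olfactory receptor genes, which intestine barely uses, had a count for 49 of 1144 genes in control, 152 in NEC and 43 in PCI34051+NEC. The part these features play in the differences below was not tested. Epithelial markers were present in both libraries, with Epcam at 2731 and 404 CPM and Cdh1 at 545 and 164 CPM, as were markers of the muscle wall, with Des at 156 and 1227 CPM and Acta2 at 309.8 and 2326 CPM. In bulk tissue, fewer cells of a type and less RNA per cell cannot be told apart.

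**Figure D1:**
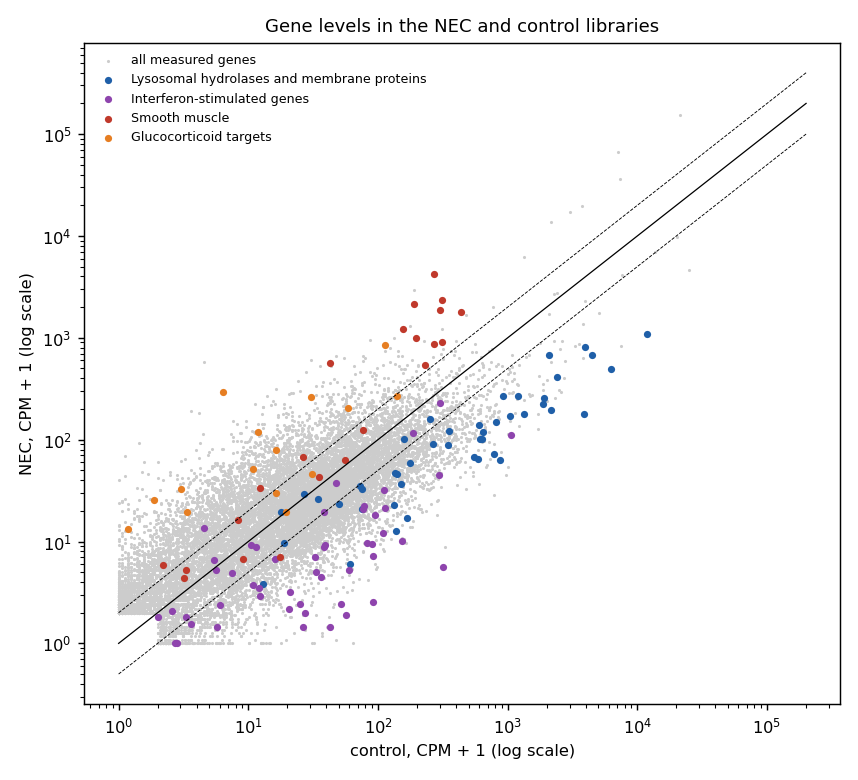
Level of each measured gene in control (x axis) and NEC (y axis), both as CPM + 1 on log scales, 1 library each. The solid line marks equal levels and the dashed lines 2-fold differences. Lysosomal genes (blue) and interferon-stimulated genes (purple) lie mostly under the lower dashed line, smooth muscle genes (red) and glucocorticoid targets (orange) mostly above the upper one.

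Lysosomal genes were lower almost throughout. Of 45 measured genes of lysosomal hydrolases and membrane proteins, 39 were at least 2-fold lower in NEC and 0 higher, with a median log2 difference of -2.30. Ctsl, the cysteine protease cathepsin L (ENSMUSG00000021477, minus strand of chromosome 13 from 64359337 to 64370890), was at 3848 CPM in control and 177 CPM in NEC, 21.8-fold lower (20.8 to 22.8). Lgmn, the asparaginyl endopeptidase legumain (ENSMUSG00000021190, minus strand of chromosome 12 from 102394084 to 102439813), had the most counts of the list, at 11800.3 CPM in control and 1081 CPM in NEC, 10.9-fold lower (10.7 to 11.1). Ctsb, cathepsin B, was at 6266 and 492 CPM. Enzymes that take sugars off glycoproteins, glycolipids and glycosaminoglycans were low as well. Hexa, the alpha subunit of hexosaminidase, was at 2173 and 196 CPM, 11.1-fold lower (10.6 to 11.6). Galns, which removes sulphate from keratan sulphate, was at 872 and 62.6 CPM, and Gusb, beta-glucuronidase, at 782 and 71.1 CPM. Ppt1, which strips palmitate from proteins, was at 138 and 11.8 CPM, 11.7-fold lower (9.79 to 14.1). The members within 2-fold included Ids (25.8 and 28.6 CPM), the iduronate sulphatase, and Ctsf (16.9 and 18.6 CPM), a cathepsin. The vacuolar proton pump, which acidifies the lysosome, was looked at after its values were seen: 9 of 16 measured subunit genes were at least 2-fold lower and 1 was higher, and the median was -1.25. Its catalytic subunit Atp6v1a was at 252 and 61.2 CPM. Structural genes of the same epithelium were also lower, but their medians were nearer 0, at -1.25 for the brush border cytoskeleton and -1.06 for junction adaptors. The difference between these lists was not tested.

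The E-box letters CACGTG are the core of the site that factors of the TFEB family bind in promoters of lysosomal genes, so promoters were searched for them on both strands. A RefSeq promoter (GRCm38.p6, 250 bases before to 50 after the start) was available for 35 of the 45 measured lysosomal genes, and 14 of these, 40%, held at least 1 match. Among all 11384 measured genes with such a promoter the share was 11.1%. The site is known from lysosomal genes, so the high share is no independent result. The 170 bases before the start are shown, with the E-box in capitals, for a promoter with 4 matches and for 2 promoters with 1 match, to show how the site can be placed: Lamp1 (chr8:13158991-13159160, plus strand), Glb1 (chr9:114400908-114401077, plus strand) and Arsa (chr15:89477425-89477594, minus strand).
Lamp1: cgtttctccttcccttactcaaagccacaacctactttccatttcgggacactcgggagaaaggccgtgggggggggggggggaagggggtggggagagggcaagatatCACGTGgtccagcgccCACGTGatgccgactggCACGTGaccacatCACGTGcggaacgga
Glb1: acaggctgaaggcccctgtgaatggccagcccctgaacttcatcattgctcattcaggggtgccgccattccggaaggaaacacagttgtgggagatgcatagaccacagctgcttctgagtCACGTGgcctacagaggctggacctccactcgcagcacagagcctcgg
Arsa: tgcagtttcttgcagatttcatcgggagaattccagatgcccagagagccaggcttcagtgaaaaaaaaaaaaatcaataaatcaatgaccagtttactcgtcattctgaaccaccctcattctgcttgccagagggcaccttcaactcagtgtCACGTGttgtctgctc
Lamp1, a major glycoprotein of the lysosomal membrane, was at 1855, 225 and 1797 CPM in control, NEC and PCI34051+NEC, and was 8.24-fold lower (7.91 to 8.59) in NEC than in control. Glb1, beta-galactosidase, was at 1326, 179 and 1473 CPM, and Arsa, arylsulphatase A, at 149, 36 and 127 CPM. NEC was the lowest of the 3 libraries for each of the 3 genes. Lysosomal genes with a match had a median of -2.48 (12 of 14 at least 2-fold lower) and those without a match -2.18 (18 of 21). A match describes the sequence and shows no binding.

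Genes of uptake ahead of the lysosome were low as well. Of 15 measured genes of suckling-type endocytosis, 13 were at least 2-fold lower and 0 were higher, and the median was -2.89; some of them, Ctsl and Lgmn included, are lysosomal too. Fcgrt, the neonatal Fc receptor that carries milk antibody across the epithelium (ENSMUSG00000003420, minus strand of chromosome 7 from 45092990 to 45103851), was at 2006 CPM in control and 238 CPM in NEC, 8.42-fold lower (8.09 to 8.76). Dab2, an adaptor for clathrin-mediated uptake, was at 1132 and 180.4 CPM, and Lrp2, the scavenger receptor megalin, at 43.9 and 4.11 CPM. Prdm1, a transcription factor of the suckling enterocyte, was at 127 and 13.6 CPM. Igf2r, the receptor that sorts newly made hydrolases to the lysosome, was at 547 and 114 CPM, 4.8-fold lower (4.52 to 5.09). Sorting nexins, which bend and sort endosomal membrane, were noticed among the symbol families: 18 of 29 measured genes named Snx were at least 2-fold lower and 0 higher. The retromer-associated Snx1 was at 272 and 58.6 CPM and Snx5 at 350.4 and 102 CPM.

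Genes of protein folding in the endoplasmic reticulum (ER) were lower in NEC. The unfolded protein response raises this set when misfolded protein builds up in the ER. Of 23 measured members, 15 were at least 2-fold lower in NEC and 0 higher, with a median of -1.56. Hspa5, the ER chaperone BiP (ENSMUSG00000026864, plus strand of chromosome 2 from 34771970 to 34777547), was at 343 CPM in control and 58.5 CPM in NEC, 5.86-fold lower (5.4 to 6.37). Canx, the lectin chaperone calnexin, was at 354 and 68.1 CPM, 5.19-fold lower (4.81 to 5.61), and its soluble relative Calr at 791 and 218 CPM. Sdf2l1, a BiP cofactor, was at 28.8 and 5.21 CPM, and Dnajb9, another, at 69.6 and 18.1 CPM. Edem1, which directs misfolded glycoproteins to degradation, was at 121 and 32.2 CPM. Syvn1, the ubiquitin ligase of that pathway, was within 2-fold at 47.7 and 61.5 CPM. Neighbouring steps of the secretory route were picked after their values were seen. Cargo receptors of the Tmed family had 7 of 10 measured members at least 2-fold lower and 0 higher, with Tmed2 at 105 and 33.5 CPM. The Alg genes, which build the sugar chain for N-glycosylation, had 7 of 11 lower and 0 higher. By contrast, genes of the integrated stress response, which answers to ER stress, amino acid lack and other signals, went both ways, with 5 of 21 higher, 4 lower and a median of 0.07. Its central factor Atf4 was at 179 and 346 CPM, its phosphatase subunit Ppp1r15a at 16.3 and 61.1 CPM, and its pro-death factor Ddit3 at 60.7 and 57.5 CPM. Asns, asparagine synthetase, was at 16.9 and 7.58 CPM and the leucine sensor Sesn2 at 116 and 11.6 CPM, 9.96-fold lower (8.32 to 12).

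The ER stress element, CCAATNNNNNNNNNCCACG, is the promoter site through which ATF6 and XBP1 raise ER chaperone genes, and it was searched for on both strands after the data had been seen. It was found in 8 of the 19 members with a RefSeq promoter, or 42.1%, and in 0.167% of all promoters. The list holds genes known to answer to this response, so the high share is no independent result. The 170 bases before the start are shown, with the element in capitals, for 3 members that share it and differ in level: Canx (chr11:50325674-50325843, minus strand), Calr (chr8:84846932-84847101, minus strand) and Creld2 (chr15:88819476-88819645, plus strand).
Canx: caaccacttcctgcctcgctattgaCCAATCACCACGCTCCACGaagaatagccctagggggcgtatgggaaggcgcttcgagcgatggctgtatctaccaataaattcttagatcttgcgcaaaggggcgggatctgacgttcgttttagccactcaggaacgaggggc
Calr: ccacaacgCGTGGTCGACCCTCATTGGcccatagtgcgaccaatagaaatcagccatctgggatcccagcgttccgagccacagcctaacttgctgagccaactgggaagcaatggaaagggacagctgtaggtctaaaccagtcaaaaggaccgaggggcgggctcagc
Creld2: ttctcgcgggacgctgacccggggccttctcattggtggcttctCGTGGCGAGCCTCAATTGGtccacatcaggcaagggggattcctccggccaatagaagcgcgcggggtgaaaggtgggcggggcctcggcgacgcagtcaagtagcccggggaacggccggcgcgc
Canx was at 354, 68.1 and 295 CPM in control, NEC and PCI34051+NEC, and Calr at 791, 218 and 596 CPM. Both were lowest in NEC. Creld2, an ER protein that also carries the element, was at 35.2, 33.6 and 30.9 CPM and so was within 2-fold between control and NEC. Members with the element had a median of -1.69 and those without it -1.57. Other lists described here were searched in the same way. The metal response letters TGCNCNC were in 6 of 10 promoters of metal transport genes (60%, against 63.9% of all promoters), the HNF4 letters CAAAGTCCA in 0 of 11 of peptidases (0.624%), and the sterol letters TCACNCCAC in 1 of 17 of cholesterol genes (5.88% against 1.48%). The glucocorticoid letters ACANNNTGT were in 2 of 13 promoters of glucocorticoid targets (15.4% against 5.53%) and the CArG box in 2 of 17 of smooth muscle genes (11.8% against 1.59%). Among 16 promoters of clock genes, the D-box letters TTANGTAA were in 1 (6.25% against 1.97%) and the E-box in 5 (31.2% against 11.1%).

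**Figure D2:**
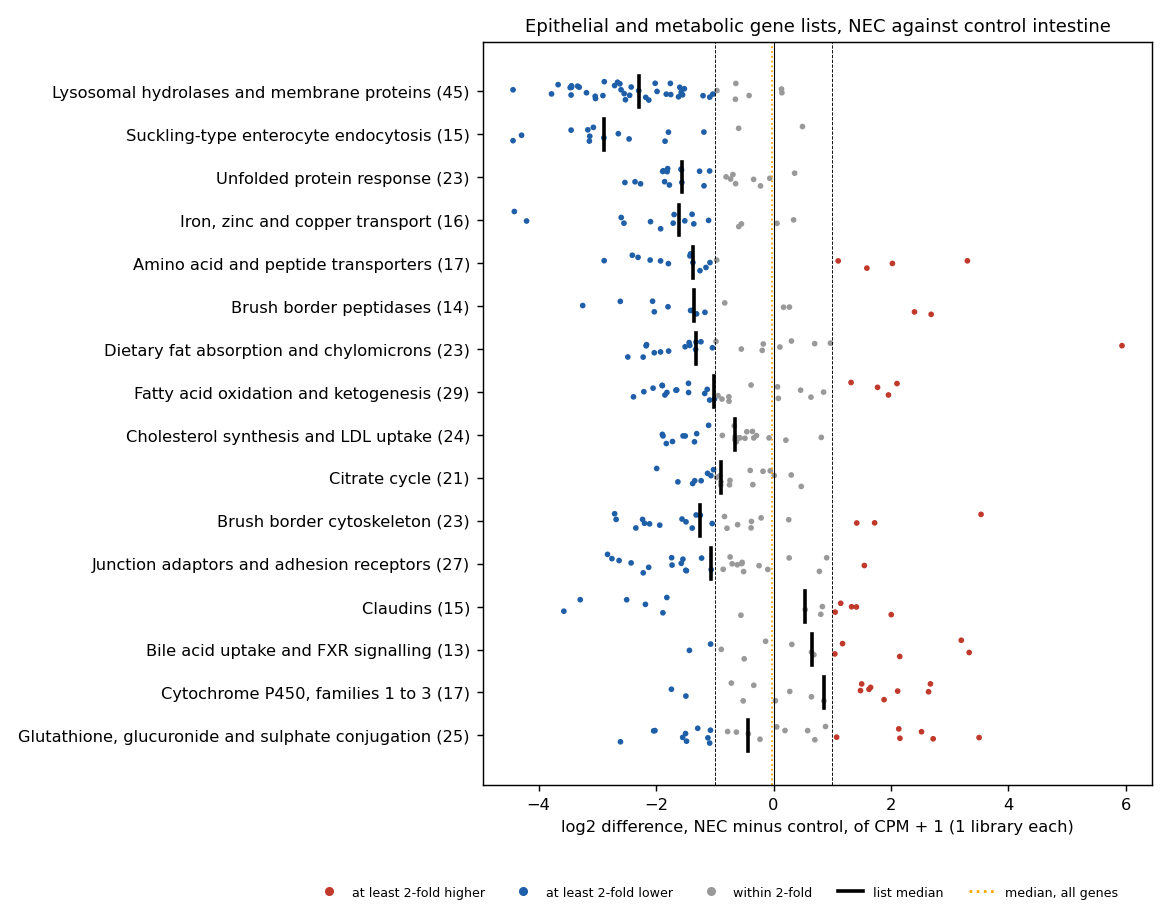
Log2 difference (NEC minus control, CPM + 1) of each measured member of 16 epithelial and metabolic lists, with the number of members in parentheses, 1 library a side. Points are genes, black bars list medians, the dotted line the median of all measured genes and dashed lines 2-fold differences. Lysosomal, endocytic and ER lists lie to the left, while claudins and conjugating enzymes spread to both sides.

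Mineral transport genes were lower in the part that handles iron, zinc and copper. Of 16 metal transport genes, 12 were at least 2-fold lower and 0 were higher, and the median was -1.60. Slc11a2, the apical iron importer DMT1 (ENSMUSG00000023030, minus strand of chromosome 15 from 100387898 to 100425072), was at 968 CPM in control and 44.5 CPM in NEC, 21.8-fold lower (19.9 to 23.9). Slc40a1, the basolateral iron exporter ferroportin, was at 997 and 53.1 CPM, 18.8-fold lower (17.3 to 20.4). The genes of importer and exporter were thus low together. The ferritin subunits Fth1 and Ftl1 stood at 2511 and 776 CPM and at 5024 and 1762 CPM, the copper importer Slc31a1 at 319 and 52.1 CPM, and the zinc importer Slc39a4 at 266 and 44.8 CPM. Slc30a10, a manganese exporter, was within 2-fold at 58.5 and 61 CPM. Calcium, phosphate and magnesium genes had no common direction, with 3 of 14 higher, 4 lower and a median of 0.03. Among the 14, 5 reached 1 CPM in NEC alone and 1 in control alone. Slc34a2, the neonatal phosphate importer, was at 563 and 70.0 CPM, 8.04-fold lower (7.47 to 8.67). Trpm6, a magnesium channel, had 0 counts in control and 432 in NEC, at least 209-fold higher with 3 counts as the floor. The vitamin D receptor Vdr was at 38.3 and 33.5 CPM.

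Genes for digestion and uptake of protein and sugar were lower in part, less so for sugar. Disaccharidase and sugar uptake genes had 6 of 16 lower and 3 higher, with a median of -0.39. Of 17 measured amino acid and peptide transporters, 12 were at least 2-fold lower and 4 were higher, and the median was -1.37. The neutral amino acid carrier Slc43a2 was at 238 and 31.4 CPM, whereas its relative Slc43a1 was at 2.45 and 33.1 CPM. Slc38a2 and Slc1a5, glutamine carriers of growing cells, were higher, at 54.4 and 224 CPM and at 29.9 and 92 CPM. The peptide carrier Slc15a1 was at 47.3 and 17 CPM. Brush border peptidases had 9 of 14 members at least 2-fold lower and 2 higher. Mep1a, the alpha subunit of meprin, was at 1709 and 179 CPM, 9.56-fold lower (9.13 to 10.0), and Naaladl1 at 3829 and 627 CPM. Dpep1, a dipeptidase, and Ggt1, gamma-glutamyltransferase, were the higher ones, at 7.55 and 54 CPM and at 8.31 and 48.1 CPM. Sucrase-isomaltase Sis, the mark of the weaned gut, was at 3.84 and 37.3 CPM, 9.71-fold higher (7.4 to 12.9), and lactase Lct, the milk sugar enzyme, at 192 and 84.6 CPM. The pair thus differed in opposite directions. Of the galactose enzymes, Galk1 was at 502 and 96.6 CPM and Galm at 188 and 30.4 CPM, and Galt, within 2-fold, at 117 and 211 CPM. In gluconeogenesis, 5 of 12 genes were lower and 2 higher. Fbp1, fructose bisphosphatase (ENSMUSG00000069805, minus strand of chromosome 13 from 62864753 to 62888282), was at 604 CPM in control and 35.8 CPM in NEC, 16.9-fold lower (15.2 to 18.7), G6pc, glucose-6-phosphatase, at 149.7 and 18.5 CPM, and Pck1, the rate-limiting carboxykinase, at 433 and 158 CPM. Its mitochondrial form Pck2 was at 25.4 and 77.7 CPM. Glycolysis went both ways, with 6 of 19 higher and 4 lower. Eno3, the muscle enolase, was at 10.8 and 141 CPM, and Ldha, lactate dehydrogenase A, at 859 and 190.4 CPM. Gapdh was at 5.16 and 33.3 CPM and has many near-identical copies in the genome, so its value is uncertain.

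Genes of fat absorption and of fatty acid oxidation were mostly lower, while other lipid lists were mostly within 2-fold. Of 23 measured genes of fat absorption, 14 were at least 2-fold lower and 1 was higher, and the median was -1.32. The summed level of the list was 43970 CPM in control and 21120 CPM in NEC. The members named next hold a minor part of it. Mogat2 and Dgat2, which rebuild triglyceride, stood at 319 and 56.3 CPM and at 1105 and 290.3 CPM. The fatty acid transport protein Slc27a4 was at 574 and 122 CPM, and the lipid droplet coats Plin2 and Plin3 at 728 and 162 CPM and at 839 and 186 CPM. Apob, the backbone of chylomicrons, was at 2614 and 920.1 CPM. Fabp1, the liver-type fatty acid binding protein, went the other way, with 2 counts in control and 743 in NEC, 539-fold higher (149 to 4461). Its intestinal relative Fabp2 was at 314 and 616 CPM. Fatty acid oxidation and ketogenesis had 15 of 29 genes lower and 4 higher, with a median of -1.01. Sterol efflux had 7 of 12 genes within 2-fold, 1 higher and 4 lower. Cholesterol synthesis had 9 of 24 genes lower and 0 higher, with a median of -0.66. Its late steps held the largest differences, with Sc5d at 107 and 28.1 CPM, Msmo1 at 83.5 and 21.9 CPM and Dhcr7 at 68 and 18.4 CPM. Npc1l1, which imports dietary cholesterol, was at 480.0 and 137 CPM, and Soat1, which esterifies it, at 148 and 21.5 CPM. In mitochondria, 8 of 21 citrate cycle genes were lower and 0 higher, and 5 were lower once the trend with base composition and length was removed. Suclg1, a succinyl-CoA ligase subunit, was at 150.3 and 37.1 CPM and citrate synthase Cs at 401 and 191 CPM.

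Bile acid and detoxification genes held members on both sides. Of 13 measured bile acid genes, 5 were at least 2-fold higher and 2 were lower, and the median was 0.65. Among the 13, 2 reached 1 CPM in NEC alone and 1 in control alone. Over the 8 members of at least 5 CPM in either library, 3 were higher and 1 lower. Cyp27a1, the sterol 27-hydroxylase, was at 9.5 and 105 CPM, 11-fold higher (9.3 to 13.2). The basolateral exporter subunit Slc51b was at 5.03 and 54.3 CPM, while its partner Slc51a was at 239.9 and 169 CPM. The bile acid receptor Nr1h4 was at 192 and 238 CPM, and Fgf15, the hormone it induces, at 69.4 and 109 CPM. The apical importer Slc10a2 was at 0.252 and 1.83 CPM. Cytochrome P450 genes of families 1 to 3 had 8 of 17 members higher and 2 lower, but 4 of the 17 reached 1 CPM in NEC alone. Cyp3a11 had 3 counts in control and 72 in NEC, 34.8-fold higher (11.5 to 173), and Cyp2d26 was at 1.64 and 15.4 CPM. Conjugating enzymes split, with 6 of 25 higher and 10 lower. Gstm1, a glutathione transferase, was at 11.6 and 142 CPM, 12.2-fold higher (10.5 to 14.3), and its neighbour Gstm4 at 39.6 and 5.66 CPM. The sulphotransferase Sult1b1 was at 166 and 39.5 CPM and Sult1a1 at 2.39 and 18.4 CPM. Ces2e, a carboxylesterase, was at 538 and 42.6 CPM, 12.6-fold lower (11.5 to 13.9), and Adh6a, an alcohol dehydrogenase, had 0 and 253 counts, at least 122-fold higher with 3 counts as the floor. Near-identical members of these families may share counts.

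Junction adaptors and the brush border cytoskeleton were mostly lower, and claudins and basement membrane genes went both ways. Of 27 junction adaptors and adhesion receptors, 14 were lower and 1 higher. Claudins, the strand proteins of tight junctions, had 5 of 15 members higher and 6 lower. The higher ones were mostly low in level: over members of at least 5 CPM in either library the median was -1.85, against 0.54 over all 15. Cldn8 was at 126 and 9.68 CPM, 13-fold lower (10.7 to 16), Cldn4 at 691 and 151 CPM and Cldn7 at 719 and 194 CPM. The pore-forming Cldn2 was at 382 and 66.7 CPM and Cldn15 at 9.12 and 21.4 CPM, and the sealing Cldn3 at 57.5 and 155 CPM. Of the receptors and matrix proteins under the epithelium, 9 of 24 were higher and 4 lower. Lama3, the chain of the epithelial laminin-332 (ENSMUSG00000024421, plus strand of chromosome 18 from 12333819 to 12583013), was at 283 CPM in control and 17.3 CPM in NEC, 16.4-fold lower (14.2 to 19.1). Itga5, the fibronectin receptor subunit (ENSMUSG00000000555, minus strand of chromosome 15 from 103344286 to 103366763), was at 29.2 CPM in control and 603 CPM in NEC, 20.7-fold higher (18.8 to 22.7). Lama5 was at 65.7 and 437 CPM and Lamb2 at 20.6 and 157 CPM. The brush border cytoskeleton had 13 of 23 genes lower and 3 higher. In it the microvillar bundlers Espn and Pls1 stood at 227 and 43.8 CPM and at 478 and 103 CPM, and the protocadherin Cdhr2 at 2747 and 585 CPM. The higher members were the keratins Krt19 (54.2 and 638 CPM) and Krt20 (15.9 and 54.8 CPM) and the motor Myo1a (203 and 545 CPM). Krt19 is also a marker of mesothelium.

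Goblet cell genes divided, with 7 of 16 higher and 6 lower. Fcgbp, a mucus protein, was at 653 and 79 CPM and the trefoil peptide Tff3 at 214 and 83.9 CPM, while Spdef, the goblet cell transcription factor, was at 5.35 and 25.7 CPM and Agr2, the mucin chaperone, at 21.4 and 71.2 CPM. Muc2, the gel-forming mucin of the intestine, had 0 counts in all 3 libraries, so its level is unknown here. Among hormones of enteroendocrine cells, Nts, neurotensin, was at 154 and 13.4 CPM and Pyy at 59.8 and 30.2 CPM, whereas the granin-like Pcsk1n was at 27.2 and 154 CPM. That list had 10 of 24 members higher and 2 lower, and several of its members are also made by enteric neurons. Among the 24, 3 reached 1 CPM in NEC alone and 1 in control alone. The gut hormone pair guanylin (Guca2a) and uroguanylin (Guca2b) was at 2570.2 and 292 CPM and at 732 and 297 CPM, and their receptor Gucy2c at 363 and 112 CPM.

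Genes of the muscle wall and its matrix were higher in NEC. Of 22 genes of smooth muscle, 14 were at least 2-fold higher and 1 was lower, and the median was 1.44. Myh11, the smooth muscle myosin heavy chain (ENSMUSG00000018830, minus strand of chromosome 16 from 14194535 to 14291372), was at 268 CPM in control and 4215 CPM in NEC, 15.7-fold higher (15.2 to 16.2), and Smtn, smoothelin, at 41.7 and 568 CPM. Collagens had 25 of 41 measured members at least 2-fold higher and 2 lower, and their median was 1.40. Among the 41, 7 reached 1 CPM in NEC alone and 1 in control alone. Col27a1, a fibrillar collagen (ENSMUSG00000045672, plus strand of chromosome 4 from 63214004 to 63334991), was at 34.7 CPM in control and 527 CPM in NEC, 15.2-fold higher (13.9 to 16.6), and the microfibrillar Col6a1 at 113 and 733 CPM. Col1a1, the main chain of fibrous collagen, was at 142 and 666 CPM. The basement membrane chain Col4a1 was within 2-fold at 204 and 191 CPM, and Col4a5 was lower, at 16.7 and 4.57 CPM. Elastin, Eln, was at 75.3 and 592 CPM and the cross-linking oxidase Lox at 6.17 and 49.8 CPM. Matrix proteases and their inhibitors had 23 of 42 higher and 4 lower, but 8 of the 42 reached 1 CPM in NEC alone and 3 in control alone. Adamts19 was at 1.01 and 59.4 CPM, 59-fold higher (36 to 104), Adamts10 at 20.7 and 171 CPM and the inhibitor Timp1 at 1.07 and 12.2 CPM. Mmp9, the gelatinase B of myeloid cells, was lower at 28.1 and 2.37 CPM, 11.8-fold lower (7.96 to 18.3). Pacemaker cells of the wall, the interstitial cells of Cajal, had 5 of 8 markers higher and 0 lower, with their receptor Kit at 16.1 and 72.1 CPM and their chloride channel Ano1 at 9.0 and 28.9 CPM. Pericyte markers had 6 of 8 higher and 0 lower, with Pdgfrb at 28.6 and 162 CPM and the channel subunit Abcc9 at 18 and 80.8 CPM.

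Markers of tissue outside the epithelium and muscle were compared next. The mesothelium, which covers the outside of the gut, had 6 of 10 markers higher and 1 lower, with Msln at 18.4 and 131 CPM and Wt1 at 1.76 and 12.9 CPM and a summed level of the list of 115 and 879 CPM. Adipocyte markers had a summed level of 319.8 and 466 CPM, and 4 of the 12 measured reached 1 CPM in NEC alone. The defining Adipoq and Plin1 had 0 counts in control and stood at 1.28 and 1.83 CPM in NEC. Liver-type proteins had 13 of 19 higher and 3 lower, with a summed level of 1271 and 435 CPM, and 4 of the 19 reached 1 CPM in NEC alone. Alb, albumin, was at 9.31, 100.4 and 0.394 CPM in control, NEC and PCI34051+NEC, highest in NEC, and the fetal Afp was at 786, 27.6 and 321 CPM, lowest in NEC. Endothelial markers had 8 of 22 higher and 1 lower, with Nos3 at 5.03 and 35.9 CPM, Pecam1 at 36.6 and 40.7 CPM and Plvap at 61.7 and 49.6 CPM. Whether the samples held different shares of wall and attached tissue was not tested.

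Morphogen genes went both ways. Hedgehog proteins come from the epithelium and act on the cells beneath it. The ligand gene Ihh was at 56.8 and 29.8 CPM and the receptor Ptch1 at 36.4 and 25.4 CPM, while the transcription factors Gli1, Gli2 and Gli3 were at 7.87 and 67.8 CPM, at 4.28 and 20.2 CPM and at 3.4 and 17.9 CPM. For Gli1, a direct target of the pathway (ENSMUSG00000025407, minus strand of chromosome 10 from 127329882 to 127341974), NEC was 8.62-fold higher (7.12 to 10.5). Of the 10 measured members of the pathway, 5 were higher and 2 lower. Wnt and BMP modulators had 9 of 22 higher and 3 lower, but 3 of the 22 reached 1 CPM in NEC alone. Rspo1, an R-spondin that boosts Wnt signalling, was at 2.83 and 45.7 CPM, 16.1-fold higher (11.9 to 22.4), the BMP antagonist Grem1 at 14 and 41.2 CPM, and the epithelial ligand Bmp7 at 289 and 47.4 CPM. Wnt targets of the crypt had no common direction: Ascl2, a stem cell factor, was at 0.629 and 17.8 CPM, Nkd1 at 9.5 and 77 CPM, Axin2 at 47.4 and 15.3 CPM and the Wnt deacylase Notum at 29.9 and 1.55 CPM. The stem cell receptor Lgr5 was at 2.01 and 5.02 CPM. Anterior HOX genes, which set position along the gut, had 13 of 20 members higher and 0 lower. Of 13 posterior ones only 4 were measured, with a summed level of 2.96 and 18.4 CPM. Hoxb3 was at 14.6, 68.8 and 5.65 CPM, Hoxb4 at 9.44, 52.9 and 3.74 CPM and Hoxa5 at 17.4, 61.8 and 14.5 CPM in control, NEC and PCI34051+NEC, highest in NEC each time. Hoxb7 was within 2-fold, at 13.9 and 10.1 CPM. The epithelial regional factor Cdx2 was at 299 and 77.4 CPM, and Hnf4a, the enterocyte master regulator, at 517 and 196 CPM.

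Excitable-cell genes were higher across neurons and ion channels. Enteric neuron markers had 17 of 21 members at least 2-fold higher and 1 lower, the last being Ret, the GDNF receptor, at 198 and 47.9 CPM. Prph, the peripheral neurofilament protein, was at 44.7 and 396 CPM and Tubb3 at 14.2 and 85.3 CPM. Synaptic and axonal genes had 14 of 23 higher and 1 lower, with the adhesion molecule L1cam at 7.87 and 57.7 CPM and the vesicle protein Syp at 14.6 and 59.6 CPM. Of 28 measured genes of voltage-gated sodium and calcium channels, 21 were higher and 1 lower, with a median of 1.77. Among the 28, 4 reached 1 CPM in NEC alone. The T-type calcium channels Cacna1h and Cacna1g stood at 12.1 and 206 CPM and at 8.68 and 150.3 CPM, and the L-type channel of smooth muscle Cacna1c at 12.5 and 92.9 CPM. For Cacna1h NEC was 17-fold higher (14.7 to 19.9). Of 60 potassium channel genes, 30 were higher and 4 lower, 16 having reached 1 CPM in NEC alone, with Kcne4 at 2.08 and 40.7 CPM and the sodium-activated Kcnt1 at 1.82 and 30.6 CPM. The epithelial members Kcnk5 and Kcns3 stood at 52.2 and 30.2 CPM and at 28.8 and 7.85 CPM. Many of these channels were near 1 to 10 CPM in control. The olfactory receptor genes counted more often in NEC were mostly lower still, as 23 of 1144 reached 1 CPM in either library.

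**Figure D3:**
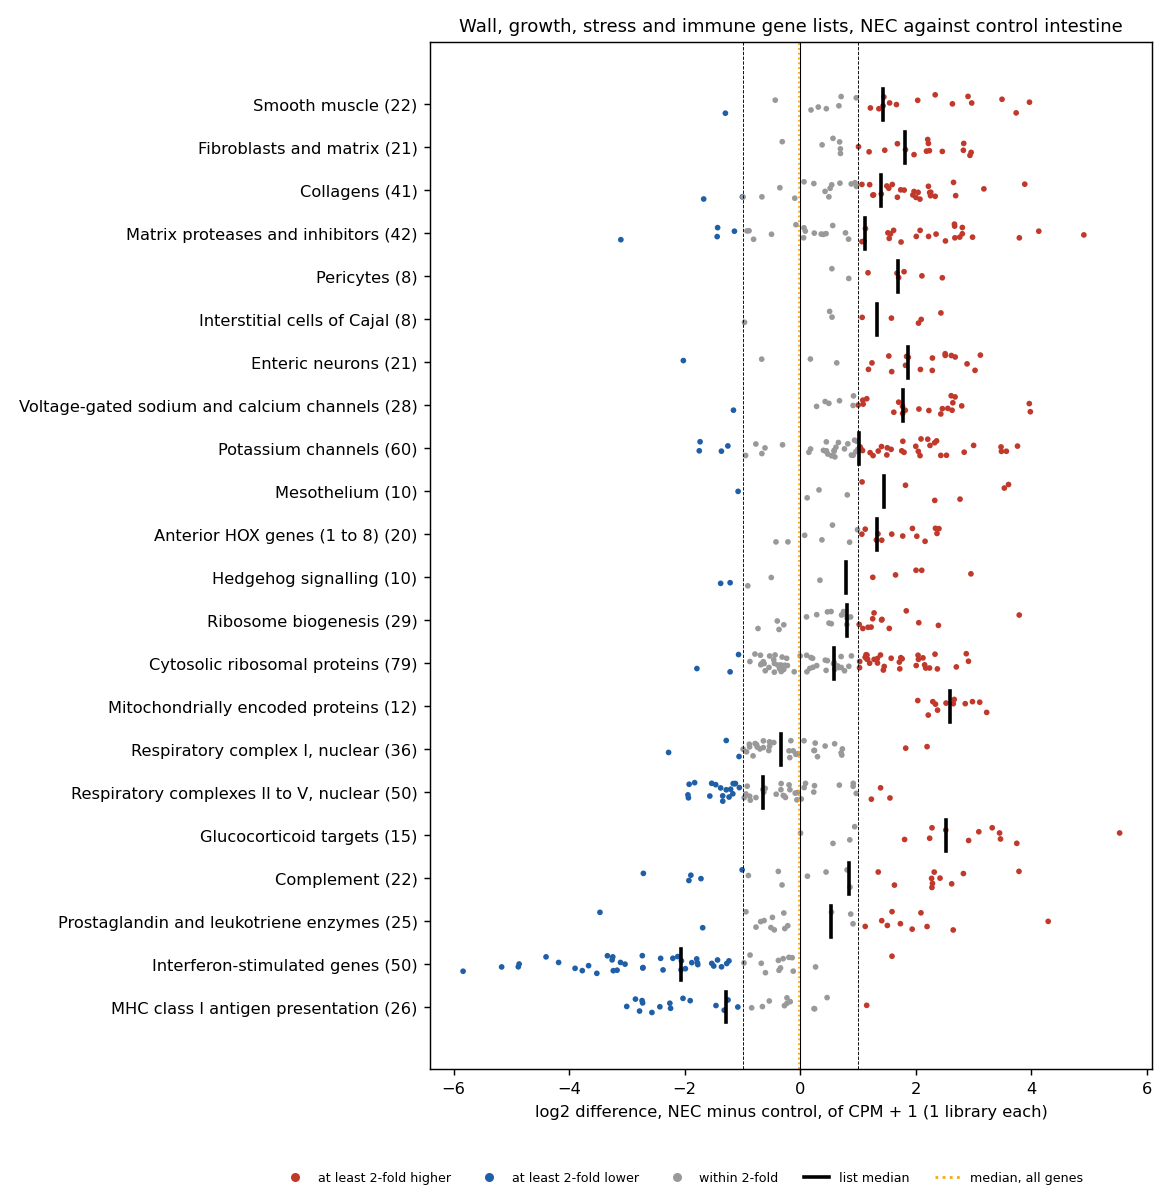
Log2 difference (NEC minus control, CPM + 1) of each measured member of 22 lists of the gut wall, growth, stress and immunity, drawn as in the plot of epithelial lists. Muscle, matrix, channel, mitochondrially encoded and glucocorticoid lists lie to the right, interferon-stimulated and MHC class I genes to the left.

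Interferon-stimulated genes were lower in NEC. Type I and III interferons raise these antiviral genes through ISGF3. Of 50 measured members, 37 were at least 2-fold lower and 1 was higher, and the median was -2.06. Among the 50, 9 reached 1 CPM in control alone. On the promoters of these genes, the letters GAAANNGAA, the core of the ISGF3 site, were found on either strand in 23 of 36 members with a RefSeq promoter (63.9%) and in 8.78% of all promoters. The list holds genes known to answer to interferon, so the high share is no independent result. Matches may overlap one another. The 170 bases before the start are shown, with matches in capitals, for 3 of the genes with the largest differences: Isg15 (chr4:156200819-156200988, minus strand), Ifit3 (chr19:34583359-34583528, plus strand) and Ddx60 (chr8:61927917-61928086, plus strand).
Isg15: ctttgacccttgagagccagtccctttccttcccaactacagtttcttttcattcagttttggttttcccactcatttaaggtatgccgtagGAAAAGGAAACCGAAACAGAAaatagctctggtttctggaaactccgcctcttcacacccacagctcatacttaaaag
Ifit3: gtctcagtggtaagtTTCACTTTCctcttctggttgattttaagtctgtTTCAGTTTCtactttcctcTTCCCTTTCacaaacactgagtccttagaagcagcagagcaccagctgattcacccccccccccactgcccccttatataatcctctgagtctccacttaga
Ddx60: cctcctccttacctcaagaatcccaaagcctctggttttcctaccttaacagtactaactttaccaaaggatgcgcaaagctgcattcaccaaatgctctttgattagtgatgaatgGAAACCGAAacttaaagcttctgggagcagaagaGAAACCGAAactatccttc
Isg15, a ubiquitin-like modifier, was at 41.5, 0.457 and 1.05 CPM in control, NEC and PCI34051+NEC, and NEC was 90.9-fold lower (38.8 to 281) than control. Ifit3, which binds viral RNA complexes, was at 51, 1.46 and 2.76 CPM, and Ddx60, a helicase, at 55.4, 0.913 and 13.6 CPM. Control was the highest of the 3 libraries for all 3 genes. Members with the letters had a median of -1.99 and members without them -2.38. Ifit1 had the largest difference of the list, at 317 and 4.57 CPM. Isg20, a nuclease, was the single higher member, at 3.52 and 12.6 CPM. The receptor genes Ifnar1 and Ifnlr1 stood at 124 and 49.2 CPM and at 68.8 and 46.3 CPM.

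Antigen presentation genes were lower with them. Of 26 measured class I genes, 15 were at least 2-fold lower and 1 was higher, and the median was -1.28. Part of this list is interferon-inducible, and 3 of the 26 reached 1 CPM in control alone. B2m, the light chain of class I (ENSMUSG00000060802, plus strand of chromosome 2 from 122147686 to 122153083), was at 631 CPM in control and 93.6 CPM in NEC, 6.74-fold lower (6.32 to 7.19), and the heavy chain H2-D1 at 1849 and 229.5 CPM. The immunoproteasome subunits Psmb8 and Psmb9 stood at 29.1 and 3.38 CPM and at 27.7 and 3.84 CPM, while 30 of 46 proteasome genes, those 2 included in the total, were within 2-fold. Class II genes had a summed level of 419 and 78.8 CPM, with 5 of 14 at 1 CPM or more in control alone, and H2-Ab1 at 62.6 and 3.01 CPM. The genes of B cells summed to a level of 156 and 39.8 CPM, and 11 of the 12 measured reached 1 CPM in control alone. Cd79b, a chain of the B cell receptor, had 200 counts in control and 0 in NEC, at least 45.9-fold lower with 3 counts as the floor.

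Innate mediators differed gene by gene. Cx3cl1, the epithelial chemokine fractalkine (ENSMUSG00000031778, plus strand of chromosome 8 from 94772009 to 94782427), was at 284 CPM in control and 23.7 CPM in NEC, 12-fold lower (10.6 to 13.6), and its receptor Cx3cr1 at 6.04 and 1.92 CPM. Chemokine receptors had 9 of 15 measured members lower and 2 higher, but 7 of them reached 1 CPM in control alone. The decoy receptors Ackr4 and Ackr1, which clear chemokines, were higher and stood at 2.96 and 43.3 CPM and at 1.13 and 12.4 CPM. Il6st, the shared receptor of the interleukin 6 family, was at 44.7 and 222 CPM, 4.97-fold higher (4.57 to 5.41), its partner Il6ra at 6.23 and 20.2 CPM, and the feedback inhibitor Socs3 at 52.5 and 214 CPM. The cytokine Il6 itself had 0 counts in control and 15 in NEC, and Tnf and Il1b were under 1 CPM in both libraries. Tnfsf10, the death ligand TRAIL, was at 37.6 and 4.11 CPM. Toll-like receptor genes had 3 of 9 members higher and 3 lower. With the adaptors, kinases and NF-kB genes that follow them, 5 of 30 were higher and 8 lower, with a median of -0.05. Tlr4, the endotoxin receptor, was at 1.38 and 7.67 CPM and the endotoxin carrier Lbp at 1.07 and 30.9 CPM, while their co-receptor Ly96 was at 12.8 and 2.01 CPM. Macrophage markers had 7 of 20 members lower and 4 higher, with a summed level of 975 and 332 CPM. Csf1r was at 406 and 58.8 CPM and Mertk at 89.3 and 27.6 CPM, but Cd163 was at 0.44 and 24.5 CPM and Mrc1 at 7.55 and 20.6 CPM. Paneth cell genes had a summed level of 35.7 and 207 CPM, and 10 of the 12 measured reached 1 CPM in NEC alone, so their count is not read as a direction.

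Complement and clotting held large single differences. Of 22 complement genes, 10 were higher and 5 lower, but 3 of the 22 reached 1 CPM in NEC alone and 1 in control alone. C4b, a core component (ENSMUSG00000073418, minus strand of chromosome 17 from 34728380 to 34743882), was at 8.56 CPM in control and 131 CPM in NEC, 15.3-fold higher (12.8 to 18.4), C3 at 61.9 and 306 CPM, properdin Cfp at 8.31 and 64.9 CPM, and the C1 inhibitor Serping1 at 18.9 and 98.5 CPM. Cd55, which protects cells from complement, was at 79.4 and 11.2 CPM, and Cfi, a fluid-phase inhibitor, at 24.4 and 5.66 CPM. Of the 22 clotting genes, 9 were higher and 6 lower, with a median of 0.09, and 3 reached 1 CPM in NEC alone and 1 in control alone. F3, tissue factor, which starts clotting (ENSMUSG00000028128, plus strand of chromosome 3 from 121723537 to 121735048), was at 6.67 CPM in control and 105 CPM in NEC, 15.8-fold higher (12.9 to 19.5). Its inhibitor Tfpi was at 93.7 and 23.6 CPM, and thrombomodulin Thbd, an anticoagulant receptor, at 14.3 and 3.29 CPM. Tfpi and Thbd thus differed from F3 in direction, but they are single members of a list that went both ways. Eicosanoid genes had 10 of 25 higher and 2 lower, but 7 of the 25 reached 1 CPM in NEC alone and 2 in control alone. Their median was 0.54, and -0.24 over members of at least 5 CPM. Ltc4s, leukotriene C4 synthase, was at 2.27 and 63 CPM, 27.8-fold higher (19.9 to 40.1), the cyclooxygenase Ptgs1 at 19.8 and 129 CPM and the inducible Ptgs2 at 2.52 and 1.28 CPM. Hpgds, a prostaglandin D synthase, was at 103 and 8.4 CPM.

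Stress programmes differed in direction. Glucocorticoid targets had 11 of 15 members higher and 0 lower, with a median of 2.52. Among the 15, 2 reached 1 CPM in NEC alone, Zbtb16 being 1 of them. Fkbp5, a cochaperone of the receptor (ENSMUSG00000024222, minus strand of chromosome 17 from 28399094 to 28517527), was at 5.35, 292 and 471 CPM in control, NEC and PCI34051+NEC, and NEC was 54.7-fold higher (44.1 to 68.6) than control. Zbtb16 was at 0.881, 24.3 and 41.3 CPM. Both genes were lowest in control. The glucocorticoid receptor gene Nr3c1 was at 78.7 and 31.5 CPM, and Hsd11b2, which inactivates the hormone, at 0.0629 and 2.1 CPM. Hypoxia-inducible genes had 4 of 24 higher and 8 lower, with a median of -0.46: Car9 was at 4.84 and 15 CPM, Vegfa at 81 and 75.9 CPM, Egln3 at 57.7 and 16.3 CPM and Slc2a1 at 67.8 and 32.8 CPM. Rbm3, the cold-inducible RNA-binding protein, was at 52 and 14.2 CPM, and Cirbp at 95.4 and 86.8 CPM. The list of cold-inducible and heat shock genes had 5 of 19 higher and 5 lower, with a median of -0.25. The small heat shock proteins Hspb1 and Hspb8 stood at 6.35 and 46.1 CPM and at 11.4 and 47.8 CPM, while the mitochondrial chaperonin pair Hspd1 and Hspe1 was at 95.4 and 38.4 CPM and at 53.7 and 18.5 CPM. Targets of p53 had 14 of 17 members within 2-fold, Cdkn1a at 88.8 and 60.5 CPM among them. Death genes had 8 of 26 lower and 2 higher. The executioner caspase Casp6 was at 23.1 and 5.11 CPM, whereas Ripk3, the necroptosis kinase, was at 8.93 and 25.5 CPM and Casp4, which senses intracellular endotoxin, at 25.2 and 70.1 CPM. Antioxidant genes had 12 of 26 lower and 4 higher. Gpx3, a secreted peroxidase and the gene with most counts in control, was at 24847 and 4681 CPM, 5.31-fold lower (5.26 to 5.36). The metallothioneins Mt1 and Mt2, which bind zinc and copper, stood at 478 and 1672 CPM and at 111 and 846 CPM.

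Clock genes went both ways, and early-response genes were more often higher than lower. Of 19 clock genes, 5 were higher and 5 lower. Per1, which glucocorticoids also induce, was at 29.6 and 260.2 CPM, 8.78-fold higher (7.96 to 9.7), and the repressor Nr1d1 at 5.22 and 47.9 CPM, while Per2 was at 116 and 44.9 CPM and Bhlhe40 at 341 and 65.1 CPM. The hour of sampling within the day is not in the labels used here. Immediate early genes had 9 of 20 higher and 2 lower, with Egr1 at 8.24 and 34.5 CPM, Fos at 6.73 and 32.5 CPM, Nr4a1 at 4.47 and 31 CPM and Jun at 261 and 73 CPM.

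**Figure D4:**
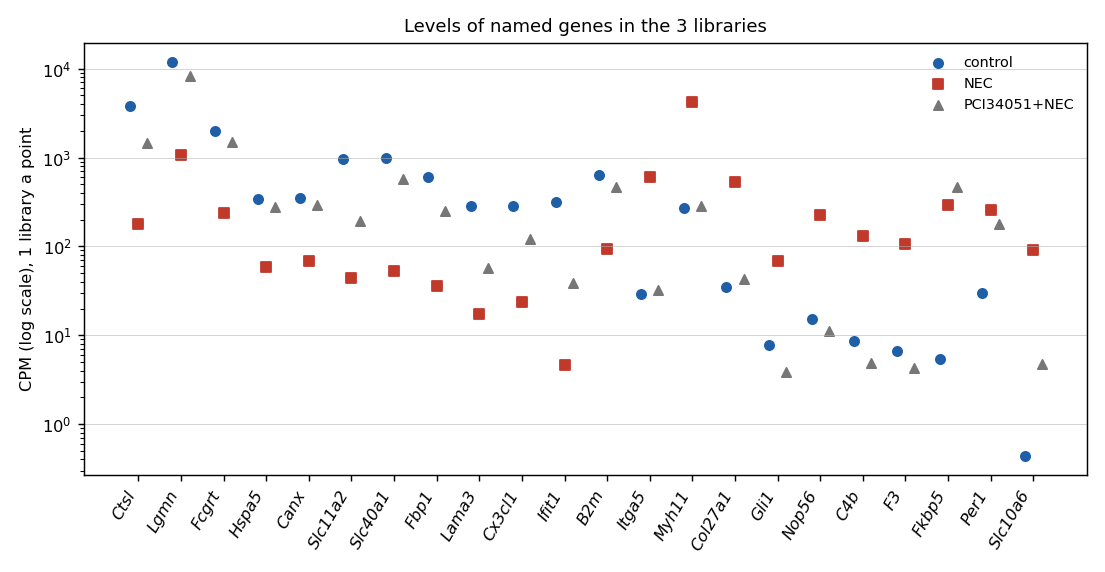
Level of 22 named genes in the control (circle), NEC (square) and PCI34051+NEC (triangle) libraries, in CPM on a log axis, 1 library a point and no error bars. From Ctsl to B2m NEC is the lowest point, and from Itga5 to F3 and for Per1 and Slc10a6 it is the highest, while Fkbp5 is highest in PCI34051+NEC.

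Growth genes divided by process. Of 29 measured genes of ribosome assembly, 13 were at least 2-fold higher and 0 were lower, and the median was 0.81. Nop56, which guides ribosomal RNA methylation (ENSMUSG00000027405, plus strand of chromosome 2 from 130274430 to 130279313), was at 15.2 CPM in control and 223 CPM in NEC, 14.7-fold higher (12.9 to 16.8). Gnl3 was at 13.7 and 76.3 CPM, Mybbp1a at 42.6 and 179.8 CPM and the polymerase subunit Polr1a at 14.3 and 39.9 CPM. Ribosomal protein genes had 31 of 79 higher and 3 lower, but they differed by level. Those with a mean of 50 CPM or more over the 3 libraries had 8 of 46 higher and a median of -0.16, and those under 50 CPM 23 of 33 and 1.34. Most of these genes have near-identical pseudogenes that can split or lose reads, so the low ones are uncertain. Mitosis genes had 11 of 27 higher and 2 lower, with Mki67 at 25.4 and 78.9 CPM and the checkpoint kinase Bub1b at 4.53 and 32.4 CPM. Replication genes had 6 of 31 higher and 3 lower, with Pold1 at 10.8 and 61.4 CPM, Mcm6 at 57.5 and 15.8 CPM and Pcna at 40.1 and 20.5 CPM. A list that holds both drivers and inhibitors of entry into the cycle had 7 of 19 members lower and 0 higher, with the kinase Cdk4 at 176 and 59.3 CPM. Myc was at 5.73 and 27.3 CPM.

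Respiratory chain genes differed by genome of origin. All 12 mitochondrially encoded genes were at least 2-fold higher in NEC, with a median of 2.59. mt-Co1, a cytochrome oxidase subunit, was at 21426 and 155223 CPM and mt-Nd1, a subunit of complex I, at 7135 and 66853 CPM. Nuclear genes of complex I had 31 of 36 members within 2-fold, 2 higher and 3 lower. Those of complexes II to V had 18 of 50 lower and 3 higher, with the ATP synthase subunit Atp5f1 at 230.3 and 59.5 CPM and the oxidase subunit Cox5a at 141 and 39 CPM. Nuclear copies of mitochondrial sequence can split reads of members such as mt-Co2, at 10.0 and 85.9 CPM.

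Growth factors of the insulin family showed single large differences. Igfals, which holds insulin-like growth factor in blood, was at 41 and 0.822 CPM, 49.8-fold lower (26.1 to 109), and Igf2 at 11.2 and 2.1 CPM. Igfbp6, which binds that hormone, was at 9.19 and 96 CPM, and the receptor Igf1r at 19.5 and 70.3 CPM. The imprinted Peg3 was at 47.4 and 369 CPM and the imprinted cell cycle inhibitor Cdkn1c at 811 and 225 CPM. In the EGF family, Lrig1, a brake on the receptors, was at 16.9 and 102 CPM, 6.03-fold higher (5.28 to 6.92), while Egfr and Erbb2 stood at 25.5 and 33.2 CPM and at 89.7 and 198 CPM.

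Of 254 symbol families with at least 8 measured members, 6 had 75% or more of them at least 2-fold apart in 1 direction. The sodium channel genes Scn had 9 of 10 higher and Hoxb genes 7 of 9. In the other 4 families most members reached 1 CPM in NEC alone, which sets their direction: 9 of 10 Paneth cell defensins (Defa), 9 of 12 axonemal dyneins (Dnah), 6 of 9 homeobox genes (Nkx) and 8 of 8 vomeronasal receptors (Vmn). Scn7a was at 3.4 and 26.2 CPM, Scn3a at 2.77 and 19.4 CPM and Nkx2-3, a factor of gut mesenchyme, at 28.3 and 88.8 CPM. Defa24 had the most counts of the defensins, at 5.47 and 32.3 CPM, and these genes are near-identical copies. Dnah10 was at 0.126 and 6.94 CPM and Dnah2 at 4.34 and 10.0 CPM. Vmn2r100 had 1 count in control and 57 in NEC, 82.7-fold higher (14.3 to 3324). Over all 326 vomeronasal genes of the table, whatever their level, 15 had a count in control, 55 in NEC and 13 in PCI34051+NEC. Whether the more frequent low counts of the NEC library bear on these families was not tested.

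Among single genes of at least 20 CPM in the higher library, Slc10a6, a carrier of steroid sulphates (ENSMUSG00000029321, minus strand of chromosome 5 from 103605711 to 103629403), showed the largest log2 difference upward after the predicted gene Gm10800, at 0.44, 92.1 and 4.8 CPM in control, NEC and PCI34051+NEC, and NEC was 209-fold higher (101 to 522) than control. It was highest in NEC. Map3k6, a stress kinase, was at 2.64, 191 and 10.6 CPM, and Ager, the receptor of advanced glycation end products, at 3.15, 181 and 8.28 CPM, 57.5-fold higher (43.4 to 77.7) in NEC than in control. Scgb3a1, a secreted protein of mucosal surfaces, was at 0.126, 43.5 and 6.44 CPM, Ovgp1 at 0.692, 44.7 and 3.94 CPM, Lmtk3 at 3.46, 113 and 4.4 CPM and the acute phase protein Lrg1 at 0.378, 32.7 and 4.66 CPM. Each of these was highest in NEC. Downward, Eif2s3y on the Y chromosome had 999 counts in control and 0 in NEC, at least 229-fold lower with 3 counts as the floor, and Ddx3y 568 and 2, 196-fold lower (53.9 to 1619.6). Rarres1, a retinoid-responsive gene (ENSMUSG00000049404, minus strand of chromosome 3 from 67478972 to 67515523), was at 325, 7.76 and 52.8 CPM in the 3 libraries, 41.9-fold lower (33.8 to 52.6) in NEC than in control. Rtp4, an interferon-induced chaperone, was at 90.9, 1.55 and 8.93 CPM, Slc6a14, a broad amino acid carrier, at 31, 0 and 4.4 CPM, and Ltf, the iron-binding lactoferrin, at 39.1, 0.457 and 27.6 CPM. NEC was the lowest library for each of them. Lrat, which stores vitamin A as esters, was at 50.7, 1.37 and 19.4 CPM, 37-fold lower (22.3 to 66.4) in NEC than in control.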

How the data were processed

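RNA was extracted from intestine and sequenced as 150 bp paired-end reads, per the labels' protocols. The deposited data are raw counts by gene symbol for 3 libraries in 1 table made by the authors, against mm10, as the submitters' processing notes name it. Aligner, annotation and strand setting: not given in the sources used here. Antisense, overlapping and near-identical genes may share counts. Gene identifiers and coordinates came from GENCODE M21, to which 21926 of 21983 symbols (99.7%) matched, and promoters came from RefSeq (GRCm38.p6).

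Counts were scaled with TMM over all 3 libraries (edgeR 4.0.16, R 4.3.3), with factors of 1.05 for control, 1.03 for NEC and 0.923 for PCI34051+NEC. Log2 differences used CPM plus a pseudocount of 1. Genes with at least 1 CPM in either library were measured and were called higher or lower at 2-fold. Counting intervals are exact conditional binomial (Clopper-Pearson) intervals at 95%. Reads copied by PCR can share a molecule, so these intervals and the floors reflect counting error alone. For folds given as at least a value, a count of 0 was set to a floor of 3 counts, which is 0.189 CPM in control and 0.274 CPM in NEC. Log2 differences, calls and list medians kept the 0 and used the pseudocount. The fold functions were tested on simulated counts.

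The comparison, the gene lists and the members named were chosen with earlier results of these data known. Named genes were drawn from the 12 largest differences each way at 20 CPM or more (predicted genes left out), up to 6 list members with the largest differences at 5 CPM or more, the 2 with most counts, defining enzymes, ligands and receptors, symbol families with 75% of 8 or more members apart in 1 direction, and sex-linked and mitochondrial genes. The text names those it describes. Genes of the proton pump, Snx, Tmed and Alg families, Muc2 and Gm10800 were chosen after their values were seen, as were Socs3 and the genes drawn in the plots. Genes can stand in more than 1 list. Alternatives used DESeq2 1.42.0. Further software was scipy 1.17.1, pandas 2.3.3 and numpy 2.4.6 under Python 3.11.15, with plots from matplotlib 3.10.9.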

Additional observations from a re-analysis of the deposited data

How the results depend on the processing

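The count of genes at least 2-fold higher was 3540 and fell to 2246 with a pseudocount of 4, which shrinks differences of low genes. Under the other alternatives it lay between 2728 (at least 5 CPM) and 3982 (pseudocount 0.25). The count of genes at least 2-fold lower, 3354, lay between 2493 (pseudocount 4) and 3620 (pseudocount 0.25). These alternatives were DESeq2 size factors, total counts, TMM over NEC and control alone, TMM without mitochondrially encoded genes, both pseudocounts, no filter, the 5 CPM minimum, control thinned to the NEC total, and subtraction of the median of each of 30 bins by GC content and then by length. Medians were compared for 80 lists, which did not include the disaccharidase and sugar uptake list. Of these, 17 had a median of 1 or more and all 17 kept its sign under each alternative. The same held for all 16 with a median of -1 or less. The median stayed past 2-fold under every alternative in 8 of the 17 and 11 of the 16. With the GC and length trend removed the collagen median went from 1.40 to 0.94, that of sodium and calcium channels from 1.77 to 1.35, that of Notch genes from 0.64 to -0.04 and that of early genes from 0.95 to 0.46. With the 5 CPM minimum the eicosanoid median went from 0.54 to -0.24 and that of claudins from 0.54 to -1.85. Of 316 named genes, none called at 2-fold changed sign under any alternative, and 262 of 3160 single-gene values moved by more than the half-width of the counting interval.

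No paired analysis was possible because each group had 1 library. For the same reason no replicate was left out. Spread between animals is unknown, and depth limits genes near the floor of 3 counts.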

Other observations

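Signals between cells of the gut wall had members on both sides. Notch genes had 5 of 16 higher and 4 lower, with the vascular Notch4 at 8.68 and 31.1 CPM and the epithelial ligand Dll1 at 47.2 and 9.59 CPM in control and NEC. Targets of YAP, the effector of the Hippo pathway, had 8 of 18 higher and 1 lower, with Ctgf, a matricellular growth factor, at 4.78 and 40.8 CPM, 8.54-fold higher (6.68 to 11). Transforming growth factor beta genes split, with 5 of 19 higher and 5 lower. Ltbp3, which stores the ligand in matrix, was at 26.1 and 139 CPM and the ligand Tgfb3 at 6.1 and 33.2 CPM, while the inhibitors Smad6 and Smad7 stood at 46.9 and 13.2 CPM and at 51.8 and 17.4 CPM. For Ltbp3 the NEC library was 5.31-fold higher (4.76 to 5.93).

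Salt, water and vitamin A genes were also divided. Ion and water transport had 3 of 21 genes higher and 7 lower, with a summed level of 8610 CPM in control and 2584 CPM in NEC. Against that sum, Slc9a3, the apical sodium-proton exchanger, was at 9.63 and 26.6 CPM. The chloride channel Cftr was within 2-fold, at 9.25 and 14.2 CPM. Vitamin A genes had 6 of 16 higher and 3 lower, but 3 of the 16 reached 1 CPM in NEC alone and 1 in control alone. Isx, the transcription factor that limits carotenoid uptake, was at 177 and 46.9 CPM and Rbp2, the retinol binding protein of enterocytes, at 585 and 393 CPM, whereas the mesenchymal enzyme Aldh1a2 was at 7.05 and 22.9 CPM. Fat synthesis had 4 of 19 higher and 3 lower, with Scd2, a desaturase, at 482 and 96.3 CPM and Mlxipl, a carbohydrate-responsive factor, at 26.5 and 76.5 CPM. Autophagy genes had 5 of 21 lower and 1 higher, with the conjugating enzyme Atg3 at 69.1 and 15.4 CPM and Atg12 at 70.2 and 19.9 CPM. Mitochondrial ribosomal proteins had 56 of 75 within 2-fold, and aminoacyl-tRNA synthetases 13 of 20.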
